A study of Saccharomyces cerevisiae with 10 samples.

Results

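General stress response genes of the budding yeast Saccharomyces cerevisiae are described here, as 30 listed genes out of 6677 features in the deposited tables. The list holds stress- and stationary-phase-induced genes and leaves out chaperone, trehalose, glycogen and glycolysis genes. The rule is a list of names without a measured value in it, but the list was drawn up with earlier results of these data known, so the counts below are no independent evidence. All 30 were found in both tables and passed the filter on low values. In PAR-CLIP, UV light crosslinks labelled RNA to a protein that is then purified by its tag and its RNA sequenced; here the RNA was nuclear, and per the study's design text the protein was RNA polymerase II (Pol II). All cells grew in synthetic medium with limiting uracil. The groups were an Nrd1-FRB strain that also carried Rpb2-HTB, a tagged Pol II subunit, with rapamycin for 45 min; a Nab3-FRB strain with rapamycin for a time that the labels do not give; and a cassette strain (NabCassette in the labels, WT in the titles) without rapamycin, whose cassette is not described. Each group had 2 libraries, and nothing says that they came from separate cultures. In the anchor-away method, rapamycin ties an FRB-tagged nuclear protein to a cytoplasm-bound partner and so depletes it from the nucleus. Whether the strains resist the growth effects of rapamycin, and whether the Nab3-FRB and cassette strains carry Rpb2-HTB, is not stated in the sources used here. Strain, depletion and rapamycin changed together in each comparison with the cassette and cannot be told apart. Between the depletions the strain and the depleted protein differed together, and rapamycin time and the Rpb2-HTB tag may have differed too. Those cannot be told apart either.

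Yeast cells meet heat, oxidants, osmotic shock or loss of nutrients with a common programme, which the zinc-finger activators Msn2 and Msn4 switch on. Protein kinase A and the TOR kinase, which rapamycin inhibits, keep those activators out of the nucleus while cells grow. The target genes carry the stress response element AGGGG in their promoters, and the products detoxify oxidants and aldehydes, protect membranes and proteins, and rebuild the cell envelope. Nrd1 and Nab3 bind nascent RNA as subunits of one complex that terminates transcription of snoRNAs and other short noncoding RNAs, and early in certain protein-coding genes.

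The promoter windows of the genes were read on RefSeq assembly R64, 300 bases each, ending 100 bases before the start codon. AGGGG, counted on both strands with overlapping matches, stood in 27 of 30 windows (90%), against 1412 of 6001 windows of all nuclear protein-coding genes (23.5%). At least 2 matches stood in 17 of 30 windows (56.7%), against 4.12% of all windows. AGGGAT, the core of the post-diauxic shift element that Gis1 recognises, stood in 10 of 30 windows (33.3%), against 9.73% of all; it shares letters with AGGGG but no match can be both at once. Such genes are textbook examples of the element, so the shares describe the list. GRE1, SPG4 and YGP1 held no AGGGG within these 300 bases. Of the 19 genes whose signal fell after Nrd1 depletion, 17 held the element (89.5%), and all 9 of those that did not pass the test held it. TCTTG, a sequence that Nab3 can bind in RNA, was searched on the sense strand only and stood in 13 of 30 windows (43.3%), against 38.8% of all.

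The 4 windows below are shown because they cover the catalase gene CTT1, the strong fallers DDR2 and YNL194C, and GRE1, which rose and held none. Each runs 5′ to 3′ towards the start codon of its gene, and capitals mark AGGGG or its reverse complement CCCCT.
CTT1, chrVII:654234-654533, plus strand: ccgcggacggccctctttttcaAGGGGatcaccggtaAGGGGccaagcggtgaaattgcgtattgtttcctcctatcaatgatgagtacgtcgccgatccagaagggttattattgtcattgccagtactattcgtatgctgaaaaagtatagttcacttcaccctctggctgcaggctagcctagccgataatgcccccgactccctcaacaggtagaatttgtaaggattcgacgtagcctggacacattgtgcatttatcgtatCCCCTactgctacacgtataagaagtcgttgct
DDR2, chrXV:231856-232155, minus strand: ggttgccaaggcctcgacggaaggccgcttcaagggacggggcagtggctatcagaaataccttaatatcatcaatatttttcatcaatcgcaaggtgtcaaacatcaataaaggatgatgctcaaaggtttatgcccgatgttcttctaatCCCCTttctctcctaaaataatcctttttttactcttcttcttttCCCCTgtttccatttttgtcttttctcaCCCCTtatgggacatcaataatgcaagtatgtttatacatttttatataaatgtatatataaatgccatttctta
YNL194C, chrXIV:273716-274015, minus strand: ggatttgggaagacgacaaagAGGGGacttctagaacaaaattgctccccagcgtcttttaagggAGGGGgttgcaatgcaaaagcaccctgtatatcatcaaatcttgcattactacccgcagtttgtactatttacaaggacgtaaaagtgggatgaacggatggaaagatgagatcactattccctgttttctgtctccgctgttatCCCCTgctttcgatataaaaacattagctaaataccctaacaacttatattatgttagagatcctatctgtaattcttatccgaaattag
GRE1, chrXVI:129239-129538, minus strand: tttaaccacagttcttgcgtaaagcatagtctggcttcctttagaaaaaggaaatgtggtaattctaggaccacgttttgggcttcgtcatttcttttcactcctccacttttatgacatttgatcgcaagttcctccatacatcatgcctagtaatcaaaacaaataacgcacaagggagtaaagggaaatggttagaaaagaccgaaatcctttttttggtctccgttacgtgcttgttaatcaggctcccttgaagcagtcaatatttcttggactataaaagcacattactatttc

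**Figure D1:**
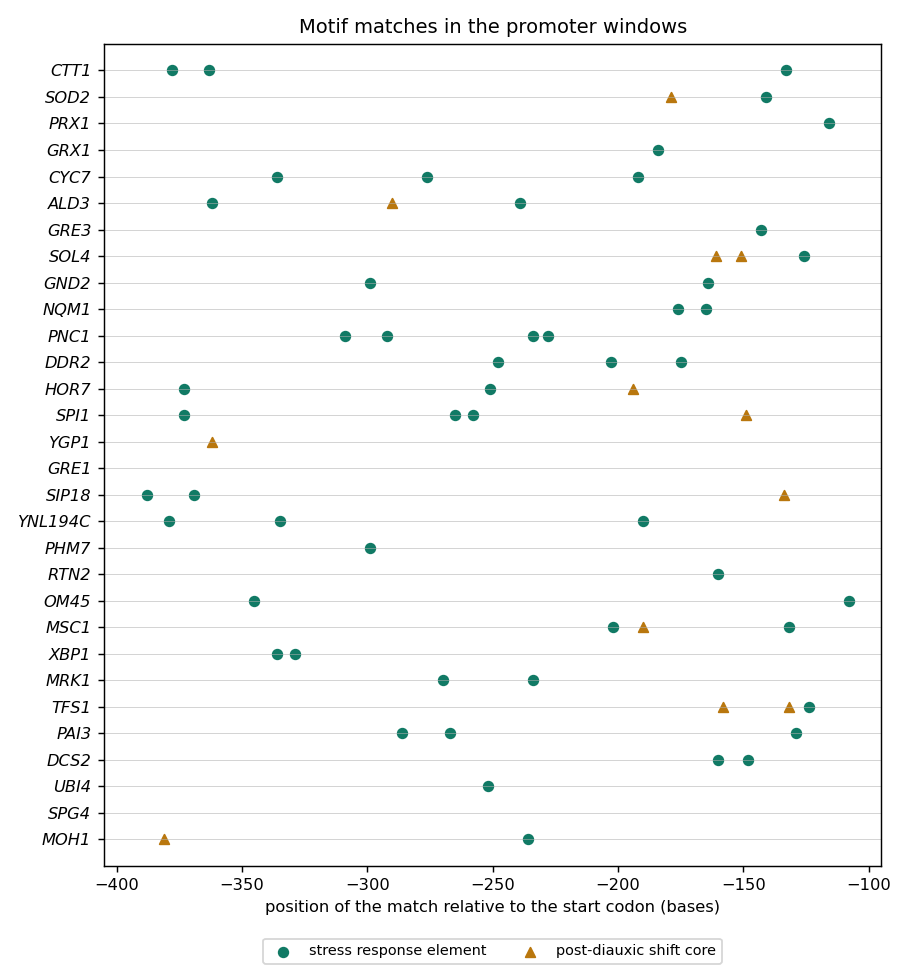
Positions of AGGGG (circles) and AGGGAT (triangles) in the promoter windows of the 30 genes, as bases relative to the start codon (x axis), with genes in rows. PNC1 has 4 circles, and the rows of GRE1 and SPG4 are empty.

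Whole reads were recovered from the deposited size-factor-scaled values. Values below are those reads on one scale for all 6 libraries, called normalised reads. The libraries held between 7395659 and 13428820 recovered reads. The genes of the study's targets frame the comparison: NRD1 had 7871 and 7374 normalised reads in the Nrd1 libraries, 6660.1 and 7623 in the Nab3 libraries, and 1752 and 1878 in the cassette libraries, and NAB3 had 2047 and 2148 normalised reads in the Nrd1 libraries, 2026 and 2065 in the Nab3 libraries, and 2274 and 2298 in the cassette libraries. Tethering leaves the genes intact, so these values do not measure how much of either protein left the nucleus. NRD1 rose 4.20-fold after Nrd1 depletion and 3.94-fold after Nab3 depletion, and the cause was not tested. In single genes the counts ran between 13 reads (SPG4 in its lowest library) and 7039 reads (UBI4 in its highest).

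In the cassette the stress genes carried little signal for their length. Their mean cassette level per kilobase of gene ran between 100.9 normalised reads for GND2 and 16706 for HOR7, with a median of 426, against a median of 902 over 5911 matched protein-coding genes; 8 of the 30 lay above the median of all genes. Behind HOR7, which encodes a small membrane-associated protein, came UBI4 at 4979, GRX1 at 3362 and PNC1 at 2285 per kilobase. The lowest were GND2, MRK1 at 107, GRE1 at 110.0 and XBP1 at 139.7. Summed over the 30 genes, the signal was 15388 and 14545 normalised reads in the Nrd1 libraries, 20845 and 22596 in the Nab3 libraries, and 22534 and 22787 in the cassette libraries. Both Nrd1 sums lay below all others, and the Nab3 and cassette sums overlapped. Without UBI4 and HOR7, the genes with the most reads, the sums were 9930.5 and 9018 for Nrd1, 12826 and 14356 for Nab3, and 14000 and 13894 for the cassette. In bulk samples, a smaller share of cells with a transcribed gene and less RNA per cell cannot be told apart. The 2 Nrd1 libraries differed more from each other than the others did: over the 30 genes the median absolute log2 difference within a group was 0.33 for Nrd1, 0.14 for Nab3 and 0.07 for the cassette.

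**Figure D2:**
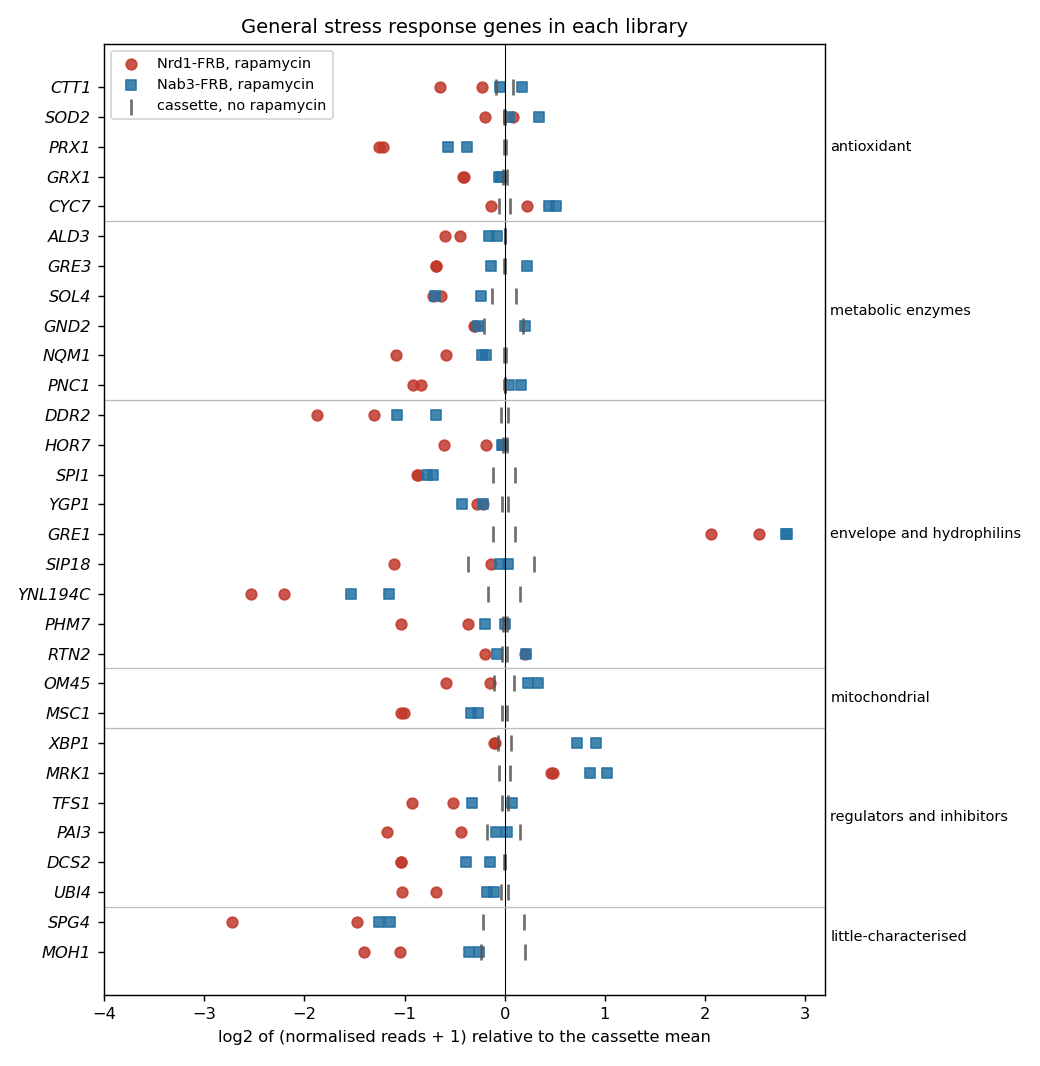
Signal of each stress gene in each library as log2 of normalised reads plus 1 relative to the cassette mean (x axis), with genes in rows grouped by role; circles are Nrd1-FRB with rapamycin, squares Nab3-FRB with rapamycin and bars the cassette. Most circles lie left of the bars, while GRE1, MRK1 and the squares of XBP1 and CYC7 lie to the right.

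After Nrd1 depletion, signal on 19 of the 30 stress genes fell, on 2 it rose, and 9 did not pass the test (limma, Benjamini-Hochberg adjusted p below 0.05 over all 6347 features tested). Of all features tested, 35.3% were called, 17.8% as falls and 17.5% as rises. Both Nrd1 libraries lay below both cassette libraries in 24 of the genes and above them in 2. How often this order occurred over all features was not counted, so these 24 have no background beside them. The median log2 fold change was -0.68 over the stress genes and -0.0044 over all features. YNL194C, a membrane protein gene, had the largest fall, 5.12-fold, followed by SPG4 at 4.23-fold and DDR2 at 3.01-fold; GRE1, which encodes a hydrophilin, rose 4.93-fold. Folds are on the log2(value + 1) scale. In 7 genes the fall was at least 2-fold, counting those past the threshold, against 93 of all 6347 features tested. The authors' deposited table, at an adjusted p below 0.05, has 17 falls and 1 rise among the same genes. The share of all features called in it was not counted. With either cassette library left out, fewer stress genes passed, and so did fewer of all features. The median over the stress genes was then -0.59 without cassette library 1 and -0.72 without cassette library 2, against -0.0070 and -0.0032 over all features. The median was -0.43 without Nrd1 library 2.

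After Nab3 depletion, 8 of the 30 stress genes fell, 5 rose and 17 did not pass the same test. Among all 6360 features tested 39.7% were called, 18.7% as falls and 21.1% as rises. In 2 stress genes past the threshold the fall was at least 2-fold, against 54 of all features. With upper-quartile scaling 10 stress genes fell, against 1488 of all features. Without the trend in eBayes 6 fell, against 721 of all features. Both Nab3 libraries lay below both cassette libraries in 14 of the genes, above them in 7, and overlapped with them in 9. Here too the order was not counted over all features. The median log2 fold change was -0.07 over the stress genes, against -0.0054 over all features. The falls were led by YNL194C (2.52-fold), SPG4 (2.27-fold) and DDR2 (1.84-fold), and the rises by GRE1 (7.06-fold), MRK1 (1.92-fold) and XBP1 (1.77-fold). Falls numbered 7 and rises 4 in the authors' deposited table, again with no share over all features counted. The balance of the stress genes moved with the library left out, towards rises without Nab3 library 2 and towards falls without Nab3 library 3. Their median was -0.02 without Nab3 library 2 and -0.16 without Nab3 library 3. All 8 genes that fell after Nab3 depletion are among the 19 that fell after Nrd1 depletion, but both comparisons share the cassette libraries. How many of all features fell in both was not counted, so this overlap has no background beside it.

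The direct comparison sets the Nrd1 libraries against the Nab3 libraries, and the cassette libraries enter its scaling, its filter and its estimate of the spread. Strain, depleted protein and possibly rapamycin time and tag differ together in it and cannot be told apart. Signal on 20 of the 30 stress genes was lower after Nrd1 than after Nab3 depletion and on 0 it was higher by limma. By limma, 21.1% of the 6359 features tested were called, 11.9% as lower and 9.25% as higher. The counts were 20 lower and 0 higher by edgeR, where 771 of all features were lower and 570 higher. They were 18 lower and 0 higher by DESeq2, where 625 of all features were lower and 451 higher. At an unadjusted limma p below 0.05 the count of higher stress genes was 0 too, against 1110 of all features. Both Nrd1 libraries lay below both Nab3 libraries in 26 of the genes, above them in 0, and overlapped with them in 4. No such count was made over all features. The median log2 difference was -0.61 over the stress genes and 0.0005 over all features. YNL194C and PNC1 had the largest called differences, at -1.02 and -0.97. With upper-quartile scaling 15 of the genes were lower; that scaling turned the balance over all features to 818 higher and 633 lower, against 588 higher and 756 lower. The count was 12 without the trend in eBayes, where 436 of all features were lower, against 756 with it. With either Nab3 library or either cassette library left out, fewer stress genes passed, and so did fewer of all features. The median over the stress genes was -0.66 without Nab3 library 2 and -0.53 without Nab3 library 3. The median was -0.40 without Nrd1 library 2.

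**Figure D3:**
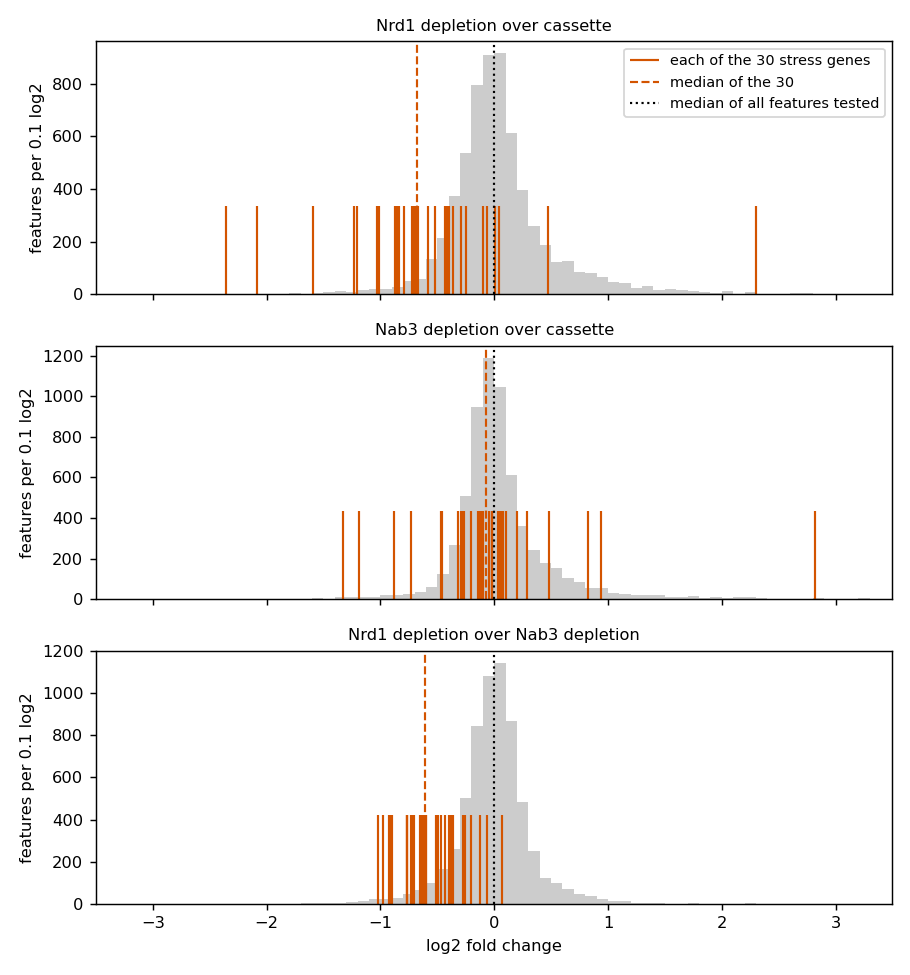
Distribution of log2 fold changes over all features tested (grey, features per 0.1 log2, with few features beyond the ends of the x axis) with each of the 30 stress genes as a vertical line, for 3 comparisons. The dashed median of the stress genes stands at -0.68, -0.07 and -0.61, beside dotted medians of all features near 0.

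**Figure D4:**
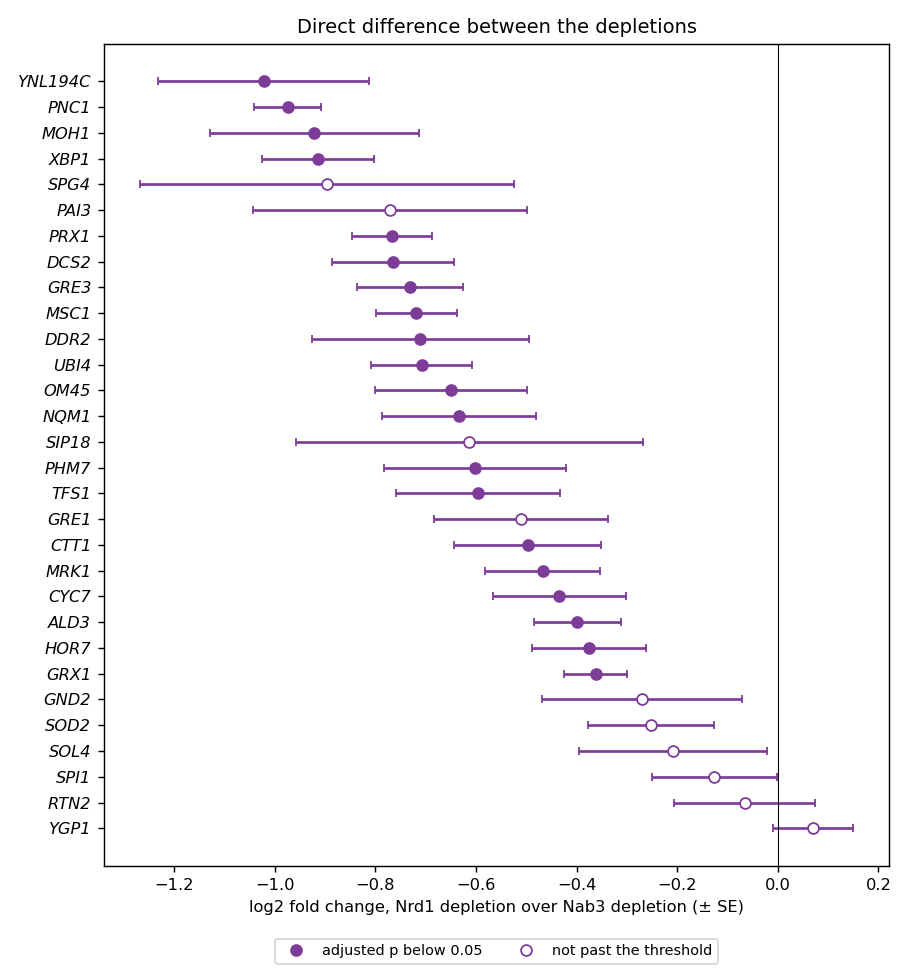
log2 fold change of Nrd1 over Nab3 depletion with its SE for each stress gene, sorted; filled circles passed an adjusted p of 0.05. The 20 filled circles all lie left of 0, between -1.02 (YNL194C) and -0.36 (GRX1).

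Of 5 genes that act on oxidants or respiration, 2 fell after Nrd1 depletion, and 1 fell and 1 rose after Nab3 depletion; over all features 17.8% fell after Nrd1 depletion, and 18.7% fell and 21.1% rose after Nab3 depletion. PRX1, which encodes a mitochondrial peroxiredoxin (chromosome II, 100371 to 101156, minus strand), had 534 and 547 normalised reads in the Nrd1 libraries, 863 and 983 in the Nab3 libraries, and 1265 and 1285 in the cassette libraries. The groups did not overlap, with the Nrd1 libraries lowest and the cassette highest. Its log2 fold change was -1.24 ± 0.07 SE, adjusted p = 9.86e-05 after Nrd1 depletion and -0.46 ± 0.07 SE, adjusted p = 0.0001 after Nab3 depletion, and the difference between the depletions was -0.77 ± 0.08 SE, adjusted p = 0.000631. GRX1, a glutaredoxin gene, had 844 and 839 normalised reads in the Nrd1 libraries, 1088 and 1075 in the Nab3 libraries, and 1104 and 1135 in the cassette libraries. Its Nrd1 libraries lay below all others, and it fell after Nrd1 depletion (-0.41 ± 0.06 SE, adjusted p = 0.00419), a call that ended when cassette library 1 (adjusted p = 0.0575) or 2 (adjusted p = 0.0699) was left out; after Nab3 depletion the value was -0.046 ± 0.06 SE, adjusted p = 0.584.

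CTT1, the cytosolic catalase T and a standard reporter of the response (chromosome VII, 654634 to 656322, plus strand), had 417 and 312 normalised reads in the Nrd1 libraries, 471 and 550.4 in the Nab3 libraries, and 459 and 518 in the cassette libraries. Both Nrd1 libraries lay below the cassette, and the Nab3 and cassette libraries overlapped. The change after Nrd1 depletion did not pass (-0.43 ± 0.15 SE, adjusted p = 0.0624). It did with the replicate block (adjusted p = 0.034) and in the fit of all 6 libraries (adjusted p = 0.0422). The log2 value was -0.642 without Nrd1 library 1 and -0.226 without Nrd1 library 2. With 1 Nrd1 library left, the spread came from the cassette libraries alone, so a pass there says little. After Nab3 depletion the value was 0.067 ± 0.10 SE, adjusted p = 0.61. CTT1 was lower after Nrd1 than after Nab3 depletion (-0.50 ± 0.15 SE, adjusted p = 0.0422), a call lost in 7 of 14 alternatives, among them leaving out Nrd1 library 2, either Nab3 library or either cassette library (adjusted p up to 0.234). CYC7, the isoform of cytochrome c made when oxygen is low, had 256 and 327 normalised reads in the Nrd1 libraries, 382 and 401 in the Nab3 libraries, and 269.7 and 293 in the cassette libraries. Only its Nab3 libraries stood apart, above the rest, with a log2 fold change of 0.48 ± 0.10 SE, adjusted p = 0.00111, against 0.044 ± 0.15 SE, adjusted p = 0.84 after Nrd1 depletion; the difference between the depletions (-0.43 ± 0.13 SE, adjusted p = 0.0478) was lost in 8 of 14 alternatives, among them leaving out Nrd1 library 1, either Nab3 library or either cassette library (adjusted p up to 0.208). SOD2, the mitochondrial manganese superoxide dismutase, passed no test, with -0.06 after Nrd1 and 0.20 after Nab3 depletion. Without Nab3 library 2 the value after Nab3 depletion was 0.342, and without Nrd1 library 1 the difference between depletions was -0.392.

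Of 6 metabolic enzyme genes 5 fell after Nrd1 depletion and 1, SOL4, after Nab3 depletion, against 17.8% and 18.7% of all features. PNC1, a nicotinamidase that clears an inhibitor of Sir2 (chromosome VII, 427297 to 427947, minus strand), had 835 and 789 normalised reads in the Nrd1 libraries, 1531 and 1662 in the Nab3 libraries, and 1488 and 1488 in the cassette libraries. Both Nrd1 libraries lay below all others, and the Nab3 libraries lay above the cassette. Its log2 fold change was -0.87 ± 0.06 SE, adjusted p = 0.000234 after Nrd1 depletion, 0.10 ± 0.06 SE, adjusted p = 0.174 after Nab3 depletion and -0.97 ± 0.07 SE, adjusted p = 0.000118 between the depletions. Without Nab3 library 2 the value after Nab3 depletion was 0.161. GRE3, an aldose reductase, had 716 and 719 normalised reads in the Nrd1 libraries, 1051 and 1351 in the Nab3 libraries, and 1159 and 1150.1 in the cassette libraries. Its Nrd1 libraries agreed closely and lay below all others, while its Nab3 libraries stood on either side of the cassette. GRE3 fell after Nrd1 depletion (-0.69 ± 0.07 SE, adjusted p = 0.0006) and was lower than after Nab3 depletion (-0.73 ± 0.11 SE, adjusted p = 0.0028). After Nab3 depletion the value was 0.05, or 0.228 without Nab3 library 2 and -0.128 without Nab3 library 3.

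The pentose phosphate genes and an aldehyde dehydrogenase gene complete that group. NQM1, a transaldolase, had 188 and 266 normalised reads in the Nrd1 libraries, 352 and 343 in the Nab3 libraries, and 398 and 403 in the cassette libraries. The Nrd1 libraries were lowest and the Nab3 libraries lay just below the cassette. NQM1 fell after Nrd1 depletion (-0.84 ± 0.17 SE, adjusted p = 0.0102), a call that ended when cassette library 1 (adjusted p = 0.0749) or 2 (adjusted p = 0.0723) was left out, against -0.20 ± 0.09 SE, adjusted p = 0.09 after Nab3 depletion. ALD3, a cytosolic aldehyde dehydrogenase whose tandem copy ALD2 is near-identical, so that its reads are uncertain, fell after Nrd1 depletion (-0.52 ± 0.09 SE, adjusted p = 0.00599), which no longer passed when cassette library 1 (adjusted p = 0.0763) or 2 (adjusted p = 0.0708) was left out; after Nab3 depletion it had -0.11 ± 0.07 SE, adjusted p = 0.231. SOL4, a 6-phosphogluconolactonase, had 108 and 102 normalised reads in the Nrd1 libraries, 104 and 142 in the Nab3 libraries, and 183 and 154 in the cassette libraries. Its Nrd1 and Nab3 libraries overlapped and lay below the cassette. It fell after both depletions, at -0.67 ± 0.17 SE, adjusted p = 0.0203 for Nrd1 and -0.46 ± 0.16 SE, adjusted p = 0.0343 for Nab3; the Nrd1 call ended when cassette library 1 (adjusted p = 0.246) or 2 (adjusted p = 0.0999) was left out, and the Nab3 call in 5 of 13 alternatives, among them leaving out cassette library 1 (adjusted p = 0.207) or Nab3 library 2 (adjusted p = 0.224). GND2, a minor 6-phosphogluconate dehydrogenase with a close copy in GND1, passed no test, with -0.29 after Nrd1 and -0.017 after Nab3 depletion. The differences between the depletions of NQM1 (-0.63) and ALD3 (-0.40) passed, and were lost without Nab3 library 2 or 3 (adjusted p between 0.0566 and 0.113), and that of NQM1 also without the trend in eBayes (adjusted p = 0.0615).

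The 9 genes of the envelope, of membranes and of hydrophilins held both extremes of the list: 6 fell and 1 rose after Nrd1 depletion, and 4 fell and 1 rose after Nab3 depletion. Over all features 17.8% fell and 17.5% rose after Nrd1 depletion, and 18.7% fell and 21.1% rose after Nab3 depletion. YNL194C, an integral membrane protein of the Sur7 family (chromosome XIV, 272710 to 273615, minus strand), had 51 and 40.3 normalised reads in the Nrd1 libraries, 81.3 and 107 in the Nab3 libraries, and 264 and 212 in the cassette libraries. The 3 groups did not overlap, in the order Nrd1, Nab3, cassette. Its log2 fold change was -2.36 ± 0.21 SE, adjusted p = 0.000447 after Nrd1 depletion, -1.33 ± 0.16 SE, adjusted p = 1.05e-05 after Nab3 depletion and -1.02 ± 0.21 SE, adjusted p = 0.0108 between the depletions; the last was lost without Nab3 library 3 (adjusted p = 0.0989). DDR2, a small protein first known from DNA damage and heat (chromosome XV, 231570 to 231755, minus strand), had 90.1 and 60.5 normalised reads in the Nrd1 libraries, 106 and 139 in the Nab3 libraries, and 230.1 and 219 in the cassette libraries. The groups again did not overlap, in the same order. DDR2 fell 3.01-fold after Nrd1 depletion (-1.59 ± 0.22 SE, adjusted p = 0.00254) and 1.84-fold after Nab3 depletion (-0.88 ± 0.14 SE, adjusted p = 0.000195); the difference between them (-0.71 ± 0.22 SE, adjusted p = 0.0472) was lost in 9 of 14 alternatives, among them edgeR (adjusted p = 0.054), DESeq2 and leaving out Nrd1 library 2, either Nab3 library or either cassette library (adjusted p up to 0.265).

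HOR7, the paralog of DDR2, had 2647 and 1972 normalised reads in the Nrd1 libraries, 2976 and 2951 in the Nab3 libraries, and 2967 and 3048 in the cassette libraries. Only the Nrd1 libraries stood below, and its fall after Nrd1 depletion was small (-0.40 ± 0.13 SE, adjusted p = 0.0465) and lost in 5 of 14 alternatives, among them leaving out cassette library 1 (adjusted p = 0.149) or 2 (adjusted p = 0.168). Its log2 fold change after Nab3 depletion was -0.017 ± 0.05 SE, adjusted p = 0.818, and the difference between the depletions (-0.38 ± 0.11 SE, adjusted p = 0.0459) was lost in 7 of 14 alternatives, among them leaving out Nrd1 library 2, either Nab3 library or either cassette library (adjusted p up to 0.176). SPI1, a cell wall protein held by a lipid anchor, had 182 and 183 normalised reads in the Nrd1 libraries, 203 and 195 in the Nab3 libraries, and 359 and 308 in the cassette libraries. The depleted libraries of both strains lay close to each other and below the cassette. SPI1 fell after Nrd1 (-0.86 ± 0.13 SE, adjusted p = 0.00364, or adjusted p = 0.0689 without cassette library 1) and after Nab3 depletion (-0.73 ± 0.11 SE, adjusted p = 0.000108), and the difference between them, -0.13 ± 0.12 SE, adjusted p = 0.494, did not pass. YGP1, a secreted glycoprotein gene, also fell after both. Its log2 fold change was -0.25 ± 0.06 SE, adjusted p = 0.024 after Nrd1 depletion, a call that ended with DESeq2 (adjusted p = 0.0822), without the trend in eBayes (adjusted p = 0.0588), and when cassette library 1 (adjusted p = 0.151) or 2 (adjusted p = 0.233) was left out. After Nab3 depletion it was -0.32 ± 0.07 SE, adjusted p = 0.00295, a call that ended without the trend (adjusted p = 0.0545), and between the depletions it was 0.07 ± 0.08 SE, adjusted p = 0.563.

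GRE1, a hydrophilin gene induced by drying and osmotic stress (chromosome XVI, 128632 to 129138, minus strand), went the other way. It had 328 and 236 normalised reads in the Nrd1 libraries, 396 and 398 in the Nab3 libraries, and 60.1 and 51.5 in the cassette libraries. All depleted libraries lay several-fold above the cassette, the Nab3 libraries highest. GRE1 averaged 282 ± 64.9 normalised reads after Nrd1 depletion, 397 ± 1.69 after Nab3 depletion and 55.8 ± 6.12 in the cassette (SD, n = 2 each), with log2 fold changes of 2.30 ± 0.21 SE, adjusted p = 0.000491 for Nrd1 and 2.82 ± 0.13 SE, adjusted p = 7.35e-10 for Nab3 depletion. The difference between the depletions, -0.51 ± 0.17 SE, adjusted p = 0.0665, passed with edgeR (adjusted p = 0.0476) and was -0.747 without Nrd1 library 1. Its paralog SIP18 had 52.3 and 26.1 normalised reads in the Nrd1 libraries, 58.8 and 55.5 in the Nab3 libraries, and 70.4 and 44.4 in the cassette libraries. The Nrd1 and Nab3 libraries each overlapped with the cassette, and it passed no test, at -0.58 (adjusted p = 0.276) after Nrd1 and 0.034 (adjusted p = 0.918) after Nab3 depletion. Without Nrd1 library 1 the value after Nrd1 depletion was -1.07 and the difference between depletions -1.1. PHM7, a membrane protein gene with the longest reading frame of the list, fell after Nrd1 depletion (-0.70 ± 0.19 SE, adjusted p = 0.0301). That call ended when cassette library 1 or 2 was left out and without the trend in eBayes (adjusted p = 0.103). After Nab3 depletion PHM7 had -0.10, or -0.194 without Nab3 library 3. Its difference between the depletions (-0.60 ± 0.18 SE, adjusted p = 0.0447) ended in 6 of 14 alternatives, among them leaving out either Nab3 or either cassette library (adjusted p up to 0.23). RTN2, a reticulon of the endoplasmic reticulum, passed no test, with 0.0035 after Nrd1 and 0.073 after Nab3 depletion. The value after Nab3 depletion was 0.216 without Nab3 library 2 and -0.0689 without Nab3 library 3.

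**Figure D5:**
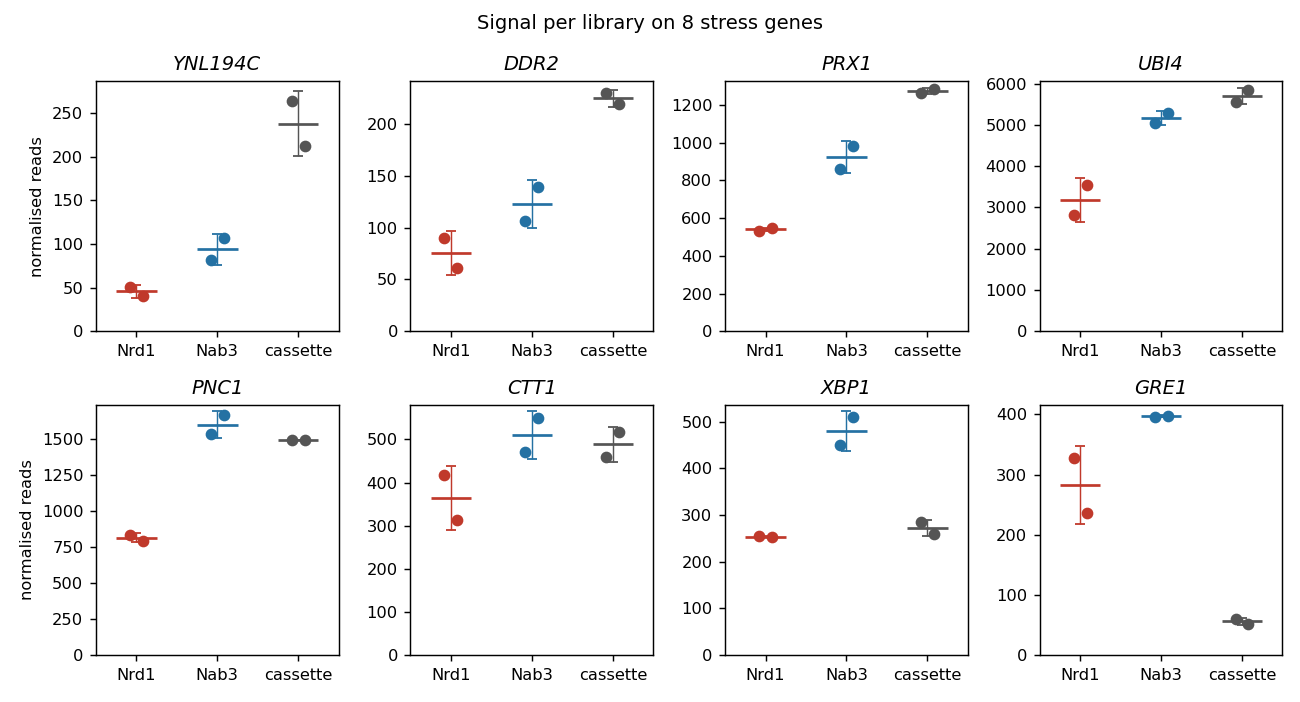
Normalised reads (y axis, starting at 0) of 8 stress genes in each library (points), with the mean (line) and SD (bars, n = 2), for the Nrd1, Nab3 and cassette groups. The Nrd1 points are lowest for YNL194C, DDR2, PRX1, UBI4, PNC1 and CTT1; XBP1 is highest in Nab3, and GRE1 lies near 56 in the cassette and above 230 in all depleted libraries.

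Both remaining mitochondrial genes were lower after Nrd1 than after Nab3 depletion, as were 11.9% of all features. MSC1, whose product is found in mitochondria, had 383 and 391.5 normalised reads in the Nrd1 libraries, 623 and 653 in the Nab3 libraries, and 799 and 769.8 in the cassette libraries. The groups did not overlap, and Nrd1 was lowest. MSC1 fell after Nrd1 depletion (-1.02 ± 0.08 SE, adjusted p = 0.000358) and after Nab3 depletion (-0.29 ± 0.07 SE, adjusted p = 0.00458, or adjusted p = 0.0669 without cassette library 1), with a difference between them of -0.72 ± 0.08 SE, adjusted p = 0.000869. OM45, an outer membrane protein, had 295 and 218 normalised reads in the Nrd1 libraries, 385 and 413 in the Nab3 libraries, and 349.6 and 305 in the cassette libraries. Its Nrd1 libraries lay below and its Nab3 libraries above the cassette. The rise after Nab3 depletion (0.29 ± 0.10 SE, adjusted p = 0.0293) ended when cassette library 2 or Nab3 library 3 was left out and in 4 other alternatives. The value after Nrd1 depletion (-0.36 ± 0.17 SE, adjusted p = 0.134) did not pass and was -0.578 without Nrd1 library 1. The difference between the depletions (-0.65 ± 0.15 SE, adjusted p = 0.0178) ended when Nab3 library 2 (adjusted p = 0.0776) or 3 (adjusted p = 0.121) was left out and without the trend in eBayes (adjusted p = 0.0554).

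Of 6 genes for regulators and inhibitors, 3 fell and 1 rose after Nrd1 depletion, and 2 rose after Nab3 depletion; over all features 17.8% fell and 17.5% rose after Nrd1 depletion, and 21.1% rose after Nab3 depletion. XBP1, a repressor of cell cycle and growth genes under stress (chromosome IX, 175307 to 177250, minus strand), had 255 and 253 normalised reads in the Nrd1 libraries, 449 and 510.2 in the Nab3 libraries, and 284 and 259 in the cassette libraries. Its Nab3 libraries alone stood high, and its Nrd1 libraries lay just below the cassette. XBP1 rose after Nab3 depletion (0.82 ± 0.10 SE, adjusted p = 1.27e-05), had -0.10 ± 0.12 SE, adjusted p = 0.553 after Nrd1 depletion, and the difference between the depletions was -0.91 ± 0.11 SE, adjusted p = 0.00126. MRK1, a kinase of the glycogen synthase kinase 3 family, had 268 and 265 normalised reads in the Nrd1 libraries, 389.9 and 348 in the Nab3 libraries, and 185 and 199 in the cassette libraries. The groups did not overlap, with the cassette lowest and Nab3 highest. MRK1 rose after Nab3 depletion (0.94 ± 0.11 SE, adjusted p = 7.68e-06) and less after Nrd1 depletion (0.47 ± 0.12 SE, adjusted p = 0.0256, which failed when cassette library 1, adjusted p = 0.242, or 2, adjusted p = 0.146, was left out and with DESeq2, adjusted p = 0.0549), and the difference between them was -0.47 ± 0.11 SE, adjusted p = 0.0216, lost without either Nab3 library (adjusted p = 0.145 and 0.0708) or either cassette library (adjusted p = 0.0509 and 0.0514).

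UBI4, the polyubiquitin gene that supplies ubiquitin under stress, had 2810.2 and 3555 normalised reads in the Nrd1 libraries, 5042 and 5289 in the Nab3 libraries, and 5567 and 5845 in the cassette libraries. Its Nrd1 libraries lay far below the rest and its Nab3 libraries just below the cassette. UBI4 fell after Nrd1 depletion (-0.85 ± 0.11 SE, adjusted p = 0.00212) and differed by -0.71 ± 0.10 SE, adjusted p = 0.00269 between the depletions. After Nab3 depletion UBI4 had -0.14 ± 0.05 SE, adjusted p = 0.055, which passed with upper-quartile scaling (adjusted p = 0.017). Without Nab3 library 3 that value was -0.171. Its ubiquitin repeats resemble those of other ubiquitin genes, so its reads are uncertain. DCS2, a regulator of the scavenger decapping enzyme, had 169.8 and 169.7 normalised reads in the Nrd1 libraries, 266 and 314 in the Nab3 libraries, and 350.4 and 347 in the cassette libraries. The groups did not overlap, and the 2 Nrd1 libraries were almost equal. DCS2 fell after Nrd1 depletion (-1.03 ± 0.12 SE, adjusted p = 0.00123) and differed by -0.76 ± 0.12 SE, adjusted p = 0.00383 between the depletions. After Nab3 depletion DCS2 had -0.27 ± 0.10 SE, adjusted p = 0.0557. That value passed with upper-quartile scaling (adjusted p = 0.0392) and with edgeR (adjusted p = 0.047), and was -0.384 without Nab3 library 3. TFS1, an inhibitor of carboxypeptidase Y, fell after Nrd1 depletion (-0.72 ± 0.15 SE, adjusted p = 0.0102), a call that ended when cassette library 1 or 2 was left out. After Nab3 depletion TFS1 had -0.12, or -0.32 without Nab3 library 3 and 0.0759 without Nab3 library 2. Its difference between the depletions (-0.60 ± 0.16 SE, adjusted p = 0.0327) ended in 4 of 14 alternatives, among them leaving out Nab3 library 3 (adjusted p = 0.215) or either cassette library. PAI3, an inhibitor of proteinase A, had 52.3 and 30.8 normalised reads in the Nrd1 libraries, 66.8 and 71.8 in the Nab3 libraries, and 79.1 and 62.5 in the cassette libraries. Both Nrd1 libraries lay below all others, but its -0.79 after Nrd1 depletion did not pass (adjusted p = 0.0839). That value passed with the replicate block (adjusted p = 0.0369) and in the fit of all 6 libraries (adjusted p = 0.0456), and was -1.16 without Nrd1 library 1.

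The little-characterised stationary-phase genes both fell after Nrd1 depletion, as did 17.8% of all features. SPG4 had 37.9 and 15.4 normalised reads in the Nrd1 libraries, 44.3 and 47.9 in the Nab3 libraries, and 123 and 91.8 in the cassette libraries. The depleted libraries lay below the cassette, and the Nrd1 libraries, which differed most from each other here, lay below the Nab3 libraries. SPG4 fell 4.23-fold after Nrd1 depletion (-2.08 ± 0.41 SE, adjusted p = 0.00952), a call that ended without cassette library 1. It fell 2.27-fold after Nab3 depletion (-1.18 ± 0.19 SE, adjusted p = 0.000169). The difference between the depletions (-0.90 ± 0.37 SE, adjusted p = 0.116) did not pass and was -1.52 without Nrd1 library 1. MOH1 had 53.6 and 68.8 normalised reads in the Nrd1 libraries, 119.8 and 112 in the Nab3 libraries, and 121 and 165 in the cassette libraries. Its Nrd1 libraries lay well below all others, and its Nab3 libraries just below the cassette. MOH1 fell after Nrd1 depletion (-1.21 ± 0.23 SE, adjusted p = 0.0085), a call that ended without cassette library 2. After Nab3 depletion MOH1 had -0.28 ± 0.16 SE, adjusted p = 0.176, and -0.508 without cassette library 1. The difference between the depletions (-0.92 ± 0.21 SE, adjusted p = 0.0153) no longer passed when Nab3 library 2 or 3 was left out.

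The activators and kinases above these genes were called in both directions. Of 28 upstream regulators 6 rose and 6 fell after Nrd1 depletion (median -0.05), and 9 rose and 5 fell after Nab3 depletion (median 0.08). Over all features 17.5% rose and 17.8% fell after Nrd1 depletion, and 21.1% rose and 18.7% fell after Nab3 depletion, so the regulators' falls and their rises after Nrd1 depletion stood near the background. The 5 that fell after Nab3 depletion were GIS1, YAP1, RAS1, PDE2 and BMH1, named after their values were seen. The next genes were also chosen in that way. MSN2 had 954 and 829 normalised reads in the Nrd1 libraries, 931 and 1002 in the Nab3 libraries, and 898 and 921 in the cassette libraries. Its Nrd1 and cassette libraries overlapped, and it passed no test. MSN4, which encodes the other activator, had 1757 and 1525 normalised reads in the Nrd1 libraries, 1798 and 1979 in the Nab3 libraries, and 1236 and 1302 in the cassette libraries. Its depleted libraries lay above the cassette, and it rose after Nrd1 (0.37 ± 0.08 SE, adjusted p = 0.0134) and Nab3 depletion (0.58 ± 0.06 SE, adjusted p = 4.28e-06). YAK1, a kinase that opposes protein kinase A, had 1063 and 979 normalised reads in the Nrd1 libraries, 1666 and 1909 in the Nab3 libraries, and 1301 and 1452 in the cassette libraries. The Nrd1 libraries lay below and the Nab3 libraries above the cassette. YAK1 fell after Nrd1 depletion (-0.43 ± 0.08 SE, adjusted p = 0.00743) and rose after Nab3 depletion (0.38 ± 0.07 SE, adjusted p = 0.000747), with a difference of -0.80 ± 0.09 SE, adjusted p = 0.000729.

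A further list held 36 other stress-induced genes outside the chaperone, trehalose, glycogen and glycolysis groups. Of these, 25 fell and 4 rose after Nrd1 depletion (median -0.53), against 17.8% and 17.5% of all features. After Nab3 depletion 12 fell and 5 rose (median -0.05), against 18.7% and 21.1% of all features. Between the depletions 24 of the 36 were lower and 1 higher after Nrd1 (median -0.48), against 11.9% lower and 9.25% higher over all features. The list, like that of the 30, was chosen with earlier results of these data known. TMA10, a ribosome-associated protein gene, had 142 and 89 normalised reads in the Nrd1 libraries, 346 and 407 in the Nab3 libraries, and 719.7 and 721 in the cassette libraries. The groups did not overlap, and the cassette was highest. TMA10 had the largest fall of the list after Nrd1 depletion, at -2.67, and the largest difference between the depletions, at -1.73. RTC3 (-1.87), the ATPase-stabilising factor gene STF2 (-1.55), the aldehyde dehydrogenase gene ALD4 (-1.32), YJL144W (-1.29), DDR48 (-1.20), ECM4 (-1.12) and the thioredoxin gene TRX2 (-1.12) followed in log2 fold change after Nrd1 depletion. After Nab3 depletion the largest changes were GRE2, a reductase (-1.38), the transketolase gene TKL2 (-0.98), TMA10 (-0.94), CWP1, a cell wall mannoprotein (0.78), TRX2 (-0.66), the peroxiredoxin gene TSA2 (-0.64), ECM4 (-0.61) and the reductase gene GCY1 (-0.58). STF2, with 261 and 212 normalised reads in the Nrd1 libraries, 545 and 679.9 in the Nab3 libraries, and 696 and 690.1 in the cassette libraries, and RTC3, with 264 and 233 normalised reads in the Nrd1 libraries, 638 and 729.9 in the Nab3 libraries, and 885 and 934 in the cassette libraries, were much lower in the Nrd1 than in the Nab3 libraries. GPD1, glycerol 3-phosphate dehydrogenase, fell after Nrd1 depletion (-0.80 ± 0.12 SE, adjusted p = 0.00316) and rose after Nab3 depletion (0.18 ± 0.06 SE, adjusted p = 0.0264). Of the genes lower after Nrd1 than after Nab3 depletion, RTC3 (-1.46), STF2 (-1.37), ALD4 (-1.12), AIM17 (-1.11), the proteinase inhibitor gene PBI2 (-1.03) and GPD1 (-0.98) were among those that followed TMA10. Named after their values were seen, PHM8, CTA1, CWP1 and PDC6 were the 4 that rose after Nrd1 depletion, PHM8, GPD1, USV1, CWP1 and SED1 the 5 that rose after Nab3 depletion, and GRE2 the 1 higher after Nrd1 than after Nab3 depletion (0.36 ± 0.07 SE, adjusted p = 0.00774).

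Several stress genes have a close paralog, or a gene for the same activity, outside the list. RTN1 rose after Nrd1 (0.43 ± 0.06 SE, adjusted p = 0.00264) and Nab3 depletion (0.47 ± 0.05 SE, adjusted p = 7.81e-06), while RTN2 passed no test. GND1 fell after Nrd1 (-0.69 ± 0.10 SE, adjusted p = 0.00376) and Nab3 depletion (-0.41 ± 0.06 SE, adjusted p = 3.6e-05), while GND2 passed neither. FMP45, a relative of YNL194C, fell after Nrd1 (-0.86 ± 0.15 SE, adjusted p = 0.00532) and Nab3 depletion (-0.36 ± 0.09 SE, adjusted p = 0.0044). RIM11 fell after Nrd1 depletion (-0.34 ± 0.08 SE, adjusted p = 0.0204), where MRK1 rose. SOD1, whose cytosolic superoxide dismutase is unrelated in sequence to that of SOD2, fell after Nrd1 depletion (-0.65 ± 0.08 SE, adjusted p = 0.00138), and CYC1, the main cytochrome c gene, had 0.14 after Nrd1 and 0.11 after Nab3 depletion and passed neither test. The remaining partners had log2 fold changes after Nrd1 and Nab3 depletion of -0.31 and -0.12 for ALD2, -0.35 and -0.15 for SOL3, -0.30 and 0.064 for TAL1, -0.38 and 0.15 for DCS1, -0.60 and -0.42 for GRX2, 0.44 and 0.11 for CTA1. Of these 6, SOL3, TAL1, DCS1 and GRX2 fell after Nrd1 depletion, CTA1 rose after Nrd1 depletion and SOL3 and GRX2 fell after Nab3 depletion. Differences between members of a pair were not tested.

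The genes lay on 12 chromosomes, 14 on the plus and 16 on the minus strand, and no annotated gene overlapped any of them. Features without an entry in the annotation could not be placed. Of 53 adjacent genes other than listed ones, 10 fell and 5 rose after Nrd1 depletion. Their median log2 fold change was -0.12, against -0.0044 over all features. After Nab3 depletion 9 of them fell and 8 rose. The falls stood near the shares of all features that fell, 17.8% after Nrd1 and 18.7% after Nab3 depletion. The rises stood below the shares of all features that rose, 17.5% after Nrd1 and 21.1% after Nab3 depletion. FMP40, which diverges from GRE1 at a distance of 1023 bases, fell after Nrd1 (-0.83, adjusted p = 0.00603) and Nab3 depletion (-1.47, adjusted p = 1.93e-08), where GRE1 rose. MMT2, downstream of GRE1 on the same strand, had -0.25 after Nrd1 and -0.15 after Nab3 depletion and passed neither test. YLR179C, upstream of TFS1 on the same strand, rose after Nab3 depletion (0.70, adjusted p = 5.05e-07), where TFS1 did not pass. PAI3 and SIP18 are divergent neighbours 650 bases apart, and DDR48, on the other side of PAI3, fell after Nrd1 (-1.20) and Nab3 depletion (-0.52). Whether counting used strand is not given in the sources used here, so antisense reads cannot be told apart from those of the genes.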

How the data were processed

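PAR-CLIP signal was measured for Nrd1-FRB with rapamycin, Nab3-FRB with rapamycin and a cassette strain, 2 libraries each; the other 4 of 10 samples were not analysed here. The deposited per-library signal values were reads divided by 1 size factor per library, as tested on the files: 100% of values came out as whole reads, to within 0.01 reads. The deposited log2 fold changes and p-values come from the authors' own comparisons. Tools and builds listed per the submitters' processing notes, with no role given, are Bowtie 1.1.1, DESeq, R64 and sacCer3; whether counting used strand, and how multiply mapped reads were treated, is not given in the sources used here. Labels of the Nab3 columns give the group but not the sample.

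Features with a mean of at least 10 were tested with limma 3.58.1 (R 4.3.3, trend in eBayes) on log2(value + 1), which understates changes of low genes. The comparisons with the cassette were fitted within each deposited table. The direct comparison used recovered reads over median-of-ratios size factors of all 6 libraries. Fold changes and p-values rest on all features, Benjamini-Hochberg adjusted, at a threshold of 0.05; the limma procedure was tested on simulated data. The alternatives were pseudocount 5, no filter, a mean of at least 50, TMM and upper-quartile scaling, no trend, edgeR 4.0.16, DESeq2 1.42.0, 1 fit of all libraries, the replicate block and leaving out each library. Values of edgeR and DESeq2 rest on recovered counts, not on counts the authors deposited.

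Recovered depths were 7395659 to 13428820 reads, which limits precision for genes with few reads. The p-values rest on the spread between libraries of the same group, pooled over the groups of a fit and moderated over all features. That spread may be technical, and it was larger between the Nrd1 libraries than within the other groups. The members and gene lists were chosen with earlier results of these data known. All members are named, with the 8 largest called changes over the 2 other lists in each comparison, taken by absolute log2 fold change; 1 gene of that rule and 1 promoter window are not reported here, and further genes are marked as chosen after their values were seen. Paralogs, genes for the same activity and adjacent genes were chosen by relation to a member.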

Additional observations from a re-analysis of the deposited data

Results flagged for a closer look

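In 4 stress genes the log2 fold changes against the cassette had opposite signs, below 0 after Nrd1 depletion and above 0 after Nab3 depletion, with at least 1 of them past the threshold, and the direct test of Nrd1 against Nab3 depletion passed (limma adjusted p). GRE3 differed by -0.731 in log2 (adjusted p = 0.0028); its value after Nab3 depletion was 0.05 and turned to -0.128 without Nab3 library 3. PNC1 differed by -0.974 (adjusted p = 0.000118). OM45 differed by -0.65 (adjusted p = 0.0178), a value that no longer passed without Nab3 library 2 or 3 or without the trend in eBayes. XBP1 differed by -0.914 (adjusted p = 0.00126).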

How the results depend on the processing

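Leaving out each library moved the counts most; where 1 library was left in an arm, it was assumed to vary like the other arm. After Nrd1 depletion, features called ranged between 640 and 3617 (without cassette library 1 and without Nrd1 library 2), stress genes called between 10 and 25, rises between 1 and 2, falls between 9 and 23, and their median log2 fold change between -0.721 and -0.432. After Nab3 depletion, features called ranged between 1672 and 2803, stress genes that rose between 4 and 9, and the median between -0.161 and -0.018. Between the depletions, features called ranged between 403 and 2074, stress genes called, all lower, between 8 and 24, and the median between -0.717 and -0.396. Without the trend in eBayes 790 features and 12 stress genes, all 12 lower, were called between the depletions, and with DESeq2 1 stress gene rose after Nrd1 depletion; the cause was not tested. On recovered reads edgeR called 2280 features after Nrd1 depletion, 2522 after Nab3 depletion and 1341 between the depletions. Across all alternatives 9 of 13 called stress genes stayed called after Nab3 depletion, 9 of 21 after Nrd1 depletion and 8 of 20 between the depletions. The share of all called features that stayed called was not counted.

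Some values that never passed in the main comparison changed sign. After Nab3 depletion SIP18 was -0.0246 with edgeR and -0.00797 with DESeq2, and RTN2 after Nrd1 depletion was -0.00113 with TMM scaling. With each library left out, log2 values after Nab3 depletion ranged between -0.292 and 0.361 for SIP18, -0.0425 and 0.176 for CTT1, -0.252 and 0.217 for GND2, -0.184 and 0.148 for PAI3, -0.0372 and 0.00351 for HOR7, -0.32 and 0.0759 for TFS1, -0.128 and 0.228 for GRE3, and -0.0689 and 0.216 for RTN2. After Nrd1 depletion they ranged between -0.193 and 0.2 for RTN2, -0.133 and 0.221 for CYC7, and -0.199 and 0.0789 for SOD2. Between the depletions they ranged between -0.262 and 0.131 for RTN2, -0.0339 and 0.174 for YGP1, and -0.434 and 0.0185 for SOL4.

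The Nrd1 and cassette libraries share the numbers 1 and 2, but the labels do not tie a number to a culture or day, and same-numbered libraries deviated together with a correlation of only 0.013. With the replicate block 21 stress genes fell and 2 rose after Nrd1 depletion, and 2243 features were called. No paired analysis was possible for Nab3 depletion because its columns carry the numbers 2 and 3 and share fewer than 2 numbers with the cassette. Genes with few reads limit detection: SPG4 had 13 reads in its lowest library.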
